A study of Mesocricetus auratus with 14 samples.

Results

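Liver responds to insulin through a relay of a receptor, docking proteins and kinases, and it is the main source of the circulating growth factor IGF1. In mice and in cultured liver cells, insulin receptor substrates IRS1 and IRS2 dock to the activated receptor and recruit PI3 kinase, which activates AKT2, and AKT2 keeps the transcription factors FOXO1 and FOXO3 out of the nucleus. FOXO1 is a known activator of Irs2 and Igfbp1 in mouse liver, where insulin lowers both transcripts and fasting raises them. Growth hormone acts through its receptor GHR, the kinase JAK2 and the factor STAT5 to induce Igf1, and IGFBP1 binds IGF1 in plasma and limits its access to cells.

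The genes described here were the members of this axis among Insr, Irs1, Irs2, Foxo1, Foxo3, Akt2, Igf1, Igfbp1, Igfbp2 and Ghr, taken by symbol from the deposited table of 10023 genes with a symbol. Of the 10 symbols, 8 had a row and all 8 passed the filter on low counts; Insr and Igfbp2 had no row under these symbols and were not analysed here. The RNA came from liver of golden hamsters (Mesocricetus auratus), all labelled as on a high-fat diet: 7 samples that received DC371739, a small molecule named only by this code, and 7 that are labelled control. Age, sex, dose, route, duration and feeding state at collection are not stated in the sources used here. Whether the samples came from separate animals is not stated either, and p-values therefore measure the spread between these samples, which may be technical. In bulk tissue, fewer cells of a type and less RNA per cell cannot be told apart.

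The 8 hepatocyte markers listed (albumin and apolipoprotein genes among them) were all present, at a summed level of 107982 to 130100 CPM, the count over the scaled library total times 1e+06, in DC371739 samples and 107909 to 143930 in controls. Libraries held 13672589 to 23948628 counts. 3 libraries stood apart: DC371739 replicate 7 and control replicates 6 and 7 held 22152239 to 23948628 counts, against 13672589 to 16710097 in the other 11, and scored 41.6 to 46.8 on the first principal component of log2 CPM, where the others scored -30.6 to -0.97. They are called deeper libraries here and the others shallower. Results are given over all 14 libraries. Many are also given with library class as a second term in the model, or for the 6 DC371739 and 5 control shallower libraries alone. Since the deeper class held 1 DC371739 library, it gave no value by itself.

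Over all 14 libraries none of the 8 genes passed an adjusted p of 0.05 in edgeR's quasi-likelihood test. Among all 12166 genes tested, 1.85% passed. At an unadjusted p under 0.05 there were 2 of the 8, Irs2 and Igfbp1, both higher in DC371739 samples, where 20.4% of all genes lay under that limit. DESeq2 called 1 of the 8, where 6.33% of all genes passed, and limma-voom with sample quality weights called 3, where 22.5% passed. Irs2 had the largest log2 fold change of the 8, and it rose with DC371739 where the deeper libraries were modelled or left out. In edgeR's test Irs1 and Foxo1 rose over the shallower libraries and not over all 14. Akt2, Foxo3, Igf1 and Ghr passed in none of these fits, and Igfbp1 passed with limma-voom alone of them. The median log2 fold change of the 8 was 0.21, against -0.02 over all genes tested.

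**Figure D1:**
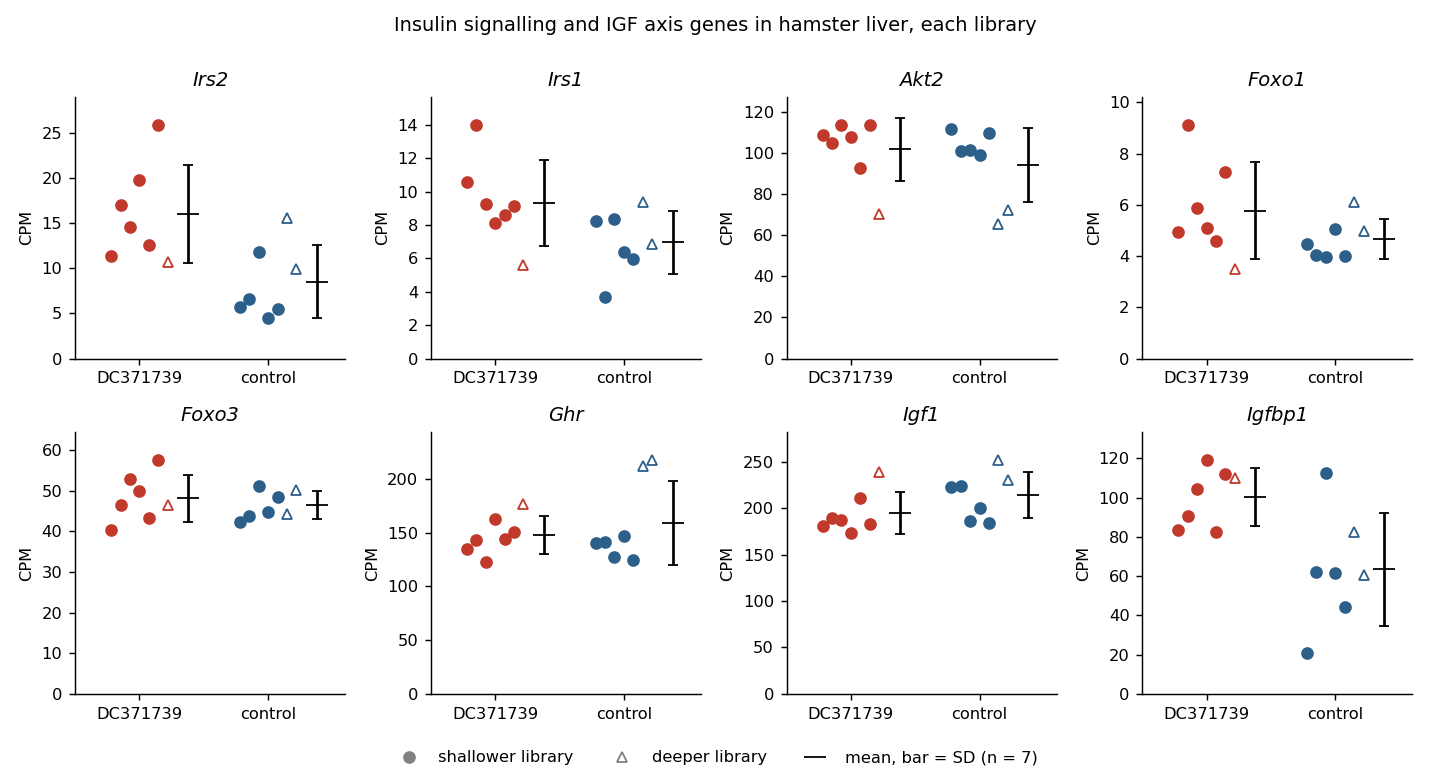
Level of each of the 8 genes in CPM (vertical axes, from 0) in every library, DC371739 on the left and control on the right of each panel; circles are shallower and open triangles deeper libraries, and the black bar is the mean ± SD over 7. For Irs2 and Igfbp1 each DC371739 value exceeded the control median, and the deeper libraries lay apart for Akt2, Ghr and Igf1.

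Irs2, the docking protein whose transcript insulin lowers in mouse liver, had 10.7 CPM in the lowest, 14.5 in the median and 25.9 in the highest DC371739 library, against 4.52, 6.56 and 15.6 CPM in controls. Each of the 7 DC371739 values exceeded the control median and 3 exceeded the highest control, so the groups overlapped. The highest control was a deeper library, replicate 6. Irs2 averaged 16.0 ± 5.42 CPM in DC371739 samples and 8.52 ± 4.08 CPM in controls (SD, n = 7 each). The log2 fold change was 0.90 (SE 0.27, adjusted p = 0.0839). The authors' deposited table gives 0.89 for the same difference, with an adjusted p of 0.0894. DESeq2 gave 0.90 (adjusted p = 0.0256) and limma-voom 1.21 (adjusted p = 0.00347). With the library class term the log2 fold change was 1.01 (SE 0.30, adjusted p = 0.0438), in a fit in which 12.3% of all genes passed and Irs2 was the 1 member that did. Among the shallower libraries Irs2 averaged 16.9 ± 5.36 CPM in 6 DC371739 samples and 6.82 ± 2.89 CPM in 5 controls, a log2 fold change of 1.31 (SE 0.27, adjusted p = 0.00779). There, 5 of the 6 DC371739 libraries lay above the highest control, replicate 3 at 11.8 CPM. Fits that left out 1 more of the shallower libraries, here and for the other genes, were added after the data were seen. Irs2 passed whichever of the 11 shallower libraries was left out, with adjusted p from 0.00232 to 0.0255. Over all 14 it passed without control replicate 6 (adjusted p = 0.0384) or DC371739 replicate 7 (0.0402), and in no other fit that left out 1 library. Counts of Irs2 were 166 to 437 per library in DC371739 samples and 74 to 316 in controls. Its exons span 508692 to 527855 on the plus strand of scaffold KB708199.1 (ENSMAUG00000020464); the build of these coordinates is not stated in the sources used here, and the counts of this and the other genes cover summed exons.

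Irs1, the other docking protein of liver, had a lower mean CPM than Irs2 in both groups, though not a lower control median. Its log2 fold change was the smaller, but the ratio test given below did not establish that the change differed from that of Irs2. Its lowest, median and highest values were 5.59, 9.12 and 14.02 CPM in DC371739 samples and 3.66, 6.87 and 9.38 CPM in controls. Of the 7 DC371739 libraries 6 lay above the control median, and the exception, at the lowest value, was deeper replicate 7. Irs1 averaged 9.33 ± 2.57 CPM with DC371739 and 6.97 ± 1.90 CPM in controls, a log2 fold change of 0.41 (SE 0.20, adjusted p = 0.264), and did not pass. With the class term it was 0.39 (SE 0.21, adjusted p = 0.207). Without the deeper libraries it rose by 0.61 (SE 0.19, adjusted p = 0.0367), 5 of 6 DC371739 libraries lying above the highest control. In that fit 21.5% of all genes passed in either direction, and of the 8 members 3 rose and 0 fell. The call of Irs1 was lost in 7 of 11 fits that left out 1 more library, namely those without DC371739 replicates 1, 2, 3 and 6 and without control replicates 2, 4 and 5 (highest adjusted p = 0.0891). Irs1 (ENSMAUG00000014911) lies at 2808748 to 2861395 on the minus strand of KB708256.1.

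Akt2, the AKT kinase with the main role in insulin's metabolic action in mouse liver, had 70.5, 108 and 114 CPM in the lowest, median and highest DC371739 library, against 65.7, 101 and 112 CPM in controls. The 3 lowest of the 14 values were those of the 3 deeper libraries, in both groups. Means were 102 ± 15.5 CPM in DC371739 samples and 94.4 ± 18.0 CPM in controls, with a log2 fold change of 0.11 (SE 0.13, adjusted p = 0.693). In the shallower libraries the means were 107 ± 7.85 CPM in DC371739 samples and 105 ± 5.68 CPM in controls, and the log2 fold change was 0.04 (SE 0.07, adjusted p = 0.718). Akt2 (ENSMAUG00000020851) lies at 351427 to 383668 on the minus strand of KB708355.1.

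Foxo1, the FOXO factor best known for driving gluconeogenic genes in fasted mouse liver, was at 3.48, 5.11 and 9.13 CPM (lowest, median and highest) in DC371739 samples and 3.96, 4.47 and 6.12 CPM in controls. The DC371739 group held both the highest value, in replicate 2, and the lowest, in deeper replicate 7. Means were 5.77 ± 1.89 CPM with DC371739 and 4.66 ± 0.79 CPM in controls, a log2 fold change of 0.30 (SE 0.19, adjusted p = 0.384). In the fit of shallower libraries Foxo1 rose by 0.52 (SE 0.18), at an adjusted p of 0.0499 that lay just under the limit. That call was lost in 7 of 11 fits without 1 more library, those without DC371739 replicates 2, 3 and 6 and without control replicates 1, 2, 3 and 5 (highest adjusted p = 0.111). With the class term Foxo1 did not pass (0.29, SE 0.20, adjusted p = 0.317). Its counts were few, 72 to 155 per library with DC371739 and 53 to 124 in controls. Foxo3, a related FOXO factor, was steady by comparison, at 40.5, 46.6 and 57.6 CPM in DC371739 samples and 42.3, 44.8 and 51.1 CPM in controls. Its log2 fold change was 0.05 (SE 0.09, adjusted p = 0.773) over all 14 libraries and 0.08 (SE 0.09, adjusted p = 0.569) over the shallower ones. Foxo1 (ENSMAUG00000000234) lies at 3069468 to 3144161 on the minus strand of KB708200.1 and Foxo3 (ENSMAUG00000013798) at 1829117 to 1928419 on the plus strand of KB708165.1.

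**Figure D2:**
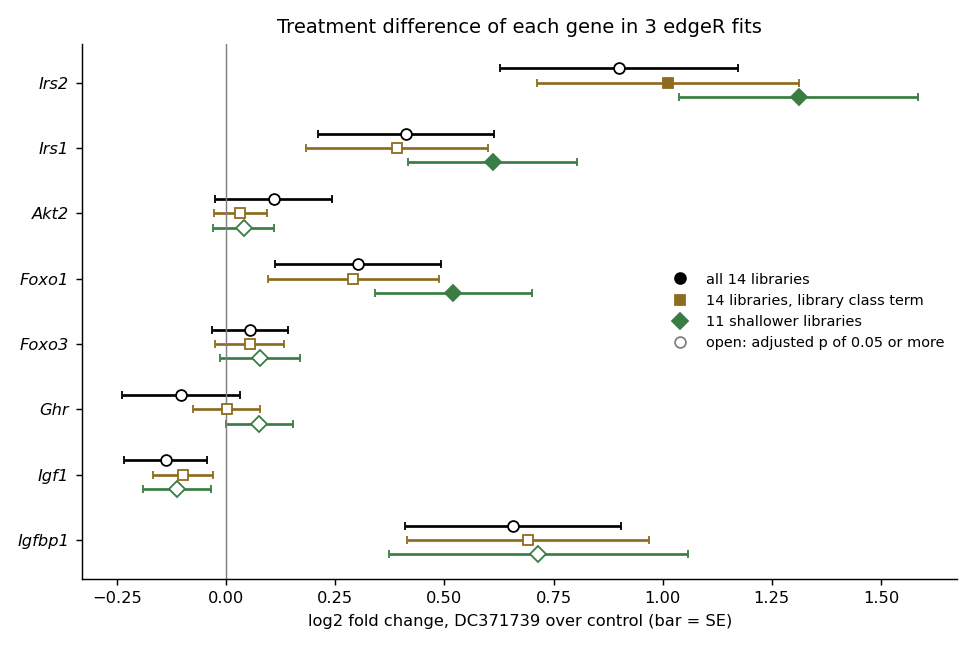
Log2 fold change of DC371739 over control (horizontal axis, bars are SE) for the 8 genes in edgeR fits over all 14 libraries (circles), with a library class term (squares) and over the 11 shallower libraries (diamonds); filled symbols have an adjusted p under 0.05. Irs2 is filled in 2 of the 3 fits and Irs1 and Foxo1 in 1, and the sign of Ghr differs between fits.

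On the growth hormone side, Ghr, the receptor, had 123, 144 and 176 CPM in the lowest, median and highest DC371739 library and 125, 141 and 217 CPM in controls. The 3 highest of all 14 values were the deeper libraries. Its log2 fold change was -0.10 (SE 0.14, adjusted p = 0.713) over all libraries and turned to 0.08 (SE 0.08, adjusted p = 0.505) over the shallower ones, and it was 0.00 (SE 0.08, adjusted p = 0.993) with the class term. Igf1, the growth factor gene that growth hormone induces, had 173, 187 and 239 CPM in DC371739 samples and 184, 223 and 252 CPM in controls. Of the 7 DC371739 libraries 6 lay below the control median and 3 below the lowest control. The 1 above the control median was deeper replicate 7, and the deeper libraries again held the 3 highest of all 14 values. Igf1 averaged 195 ± 23.0 CPM in DC371739 samples and 214 ± 25.0 CPM in controls, a log2 fold change of -0.14 (SE 0.09, adjusted p = 0.426), and -0.11 (SE 0.08, adjusted p = 0.314) over the shallower libraries. The sign of Igf1 was negative in every alternative run, and it passed in none. Ghr (ENSMAUG00000000862) lies at 139794 to 164564 on the minus strand of KB708352.1 and Igf1 (ENSMAUG00000020849) at 1328167 to 1397537 on the plus strand of KB708138.1.

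Igfbp1, the IGF carrier that insulin lowers in mouse and human liver cells, had 82.4, 104 and 119 CPM in the lowest, median and highest DC371739 library, against 21.0, 61.7 and 113 CPM in controls. The DC371739 values sat together, while the controls covered a wide range from replicate 1, the lowest, to replicate 3, the highest. Each DC371739 value exceeded the control median, 1 exceeded the highest control, and 5 controls lay below the lowest DC371739 library. Igfbp1 averaged 100.2 ± 14.7 CPM with DC371739 and 63.6 ± 28.9 CPM in controls, a log2 fold change of 0.66 (SE 0.25, adjusted p = 0.152). The class term gave 0.69 (SE 0.28, adjusted p = 0.113) and the shallower libraries 0.72 (SE 0.34, adjusted p = 0.161), so that edgeR called it in none of these 3 fits. It passed in limma-voom with sample quality weights (0.87, adjusted p = 0.0323). It also passed over the shallower libraries without control replicate 3 (1.06, adjusted p = 0.0296), the control with the highest level. The SD of log2 CPM was 0.22 in DC371739 samples and 0.77 in controls. Whether the spread differed between the groups was not tested. Igfbp1 (ENSMAUG00000011621) lies at 403114 to 408470 on the plus strand of KB708267.1.

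Some of these genes differed more between library classes than between treatments. In the fit with both terms, Akt2 was lower in deeper than in shallower libraries by a log2 change of -0.60 (SE 0.08, adjusted p = 1.29e-05), Ghr was higher by 0.53 (SE 0.09, adjusted p = 0.000163) and Igf1 by 0.29 (SE 0.08, adjusted p = 0.00841). Akt2 averaged 69.6 ± 3.43 CPM in the 3 deeper and 106 ± 6.74 CPM in the 11 shallower libraries, and Ghr 202 ± 22.4 CPM in the deeper and 140 ± 11.9 CPM in the shallower. The other 5 genes did not pass, and since 46.4% of all genes passed for library class, 3 of 8 does not single the axis out. Among the deeper libraries, DC371739 replicate 7 had 3.48 CPM of Foxo1, against 6.12 and 4.96 CPM in control replicates 6 and 7. For Irs1 it had 5.59 CPM, against 9.38 and 6.87 CPM, and for Irs2 10.7 CPM, against 15.6 and 9.93 CPM. In a fit added after these values were seen, the treatment difference in deeper minus that in shallower libraries was -1.18 for Foxo1 (SE 0.41), -1.14 for Irs1 (SE 0.44) and -1.56 for Irs2 (SE 0.61) on the log2 scale. None passed (adjusted p = 0.287, 0.320 and 0.334; unadjusted 0.00976, 0.0195 and 0.0242). In that fit 0.0164% of all genes passed and 12.5% lay under an unadjusted p of 0.05. It rests on 1 deeper DC371739 library.

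Levels of different genes were compared per length, as the authors' FPKM. In DC371739 samples the order was Igf1 (389 ± 50.4 FPKM), Ghr (108 ± 13.7), Igfbp1 (88.1 ± 13.0), Akt2 (43.2 ± 6.27), Foxo3 (9.19 ± 1.09), Foxo1 (3.94 ± 1.27), Irs2 (3.91 ± 1.30) and Irs1 (1.84 ± 0.50). In controls the order was the same, with 428 ± 53.6 FPKM for Igf1, 116 ± 29.8 for Ghr, 55.9 ± 25.4 for Igfbp1, 40.0 ± 7.35 for Akt2, 8.84 ± 0.66 for Foxo3, 3.19 ± 0.57 for Foxo1, 2.09 ± 1.02 for Irs2 and 1.38 ± 0.38 for Irs1. Foxo1 and Irs2 could not be ranked in DC371739 samples: Foxo1 was the higher in 4 of 7 libraries, against 6 of 7 controls. The ranges of Ghr and Igfbp1 overlapped in both groups, with Ghr higher in 6 of 7 libraries of each. Igfbp1 lay above Akt2 in 7 of 7 DC371739 libraries and in 5 of 7 controls. Irs2 lay above Irs1 in 7 of 7 DC371739 libraries and in 5 of 7 controls. The level of Igf1 per length rests on a summed exon length of 651 bases, the shortest of the 8, and that of Foxo1 on 1902, while Irs1 and Foxo3 have 6567 and 6812.

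**Figure D3:**
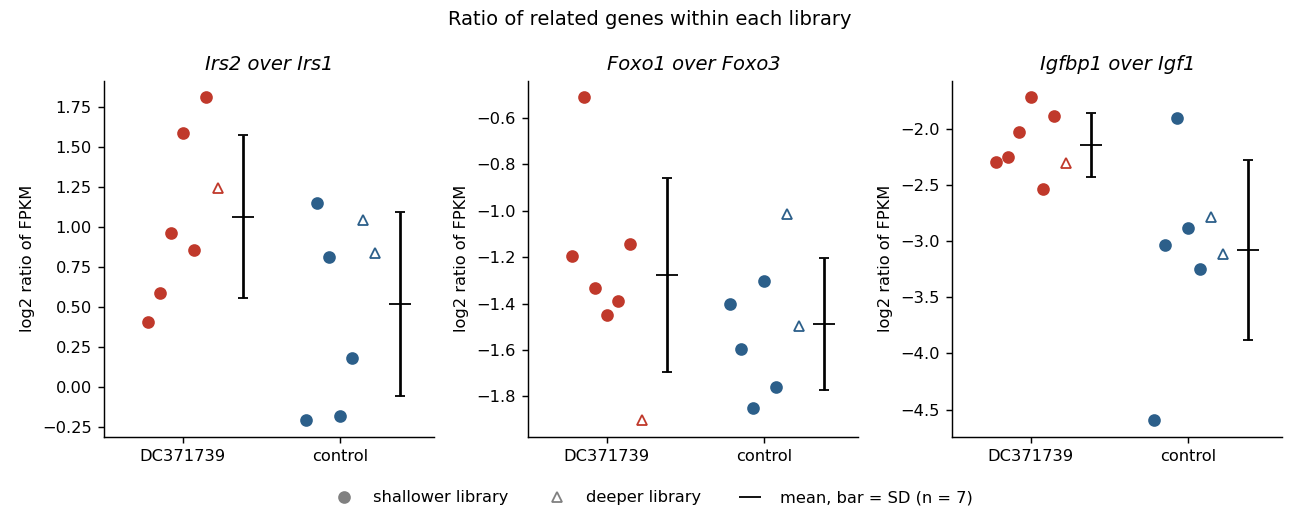
Log2 ratio of the FPKM of related genes within each library (vertical axes), DC371739 on the left and control on the right; circles are shallower and open triangles deeper libraries, and the black bar is the mean ± SD over 7. The ratio of Igfbp1 to Igf1 exceeded the control median in each DC371739 library, and each of the ratios shown overlapped between the groups.

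Within a library, Irs2 stood at 2.09 times the level of Irs1 in DC371739 samples and 1.43 times in controls (geometric means of FPKM ratios). The mean log2 ratio was 1.07 ± 0.51 with DC371739 and 0.52 ± 0.58 in controls (SD, n = 7 each), a difference of 0.55 (2-sided exact permutation p = 0.0857, adjusted over 2 ratios 0.171). So a larger difference of Irs2 than of Irs1 was not established. Over the shallower libraries the difference was 0.69 (exact permutation p = 0.0736, adjusted 0.0736). The ratio of Foxo1 to Foxo3 was 0.41 with DC371739 and 0.36 in controls, with a log2 difference of 0.21 (exact permutation p = 0.300, adjusted 0.300). Over the shallower libraries it was 0.41 (exact permutation p = 0.0346, adjusted 0.0693). The ratio of Igfbp1, the carrier, to Igf1, its ligand, was chosen after the values were seen and was not tested. It was 0.23 with DC371739 and 0.12 in controls, and its log2 value ran from -2.54 to -1.72 in DC371739 samples and from -4.60 to -1.91 in controls, the lowest of which was replicate 1.

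Of 64 other symbols listed for insulin, IGF and growth hormone signalling, 49 had a row and were tested. The 64 include Hnf6 and Onecut1, which are names of the same gene, and it was tested as Onecut1. Over all 14 libraries 1 rose, none fell and 48 did not pass, against 1.85% of all genes, and the median log2 fold change of the 49 was 0.13, against -0.02 over all genes. Rptor, the scaffold of the mTORC1 complex through which insulin and amino acids drive protein synthesis, was the gene that rose. It had 7.93, 17.1 and 19.1 CPM in the lowest, median and highest DC371739 library, against 7.56, 10.4 and 12.1 CPM in controls. In 6 of 7 DC371739 libraries it lay above the highest control, the exception being deeper replicate 7. Its log2 fold change was 0.70 (SE 0.17, adjusted p = 0.0467). The call held without control replicate 4 or 7 or DC371739 replicate 7, and was lost without any of the other 11 libraries (adjusted p up to 0.108). Rptor also rose with the class term (0.60, SE 0.15, adjusted p = 0.0205) and over the shallower libraries. In the model with library class 4 of the 49 rose and 2 fell, where 12.3% of all genes passed. Without the deeper libraries there were 8 that rose and 3 that fell, where 21.5% of all genes passed. Both counts lie near the background.

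**Figure D4:**
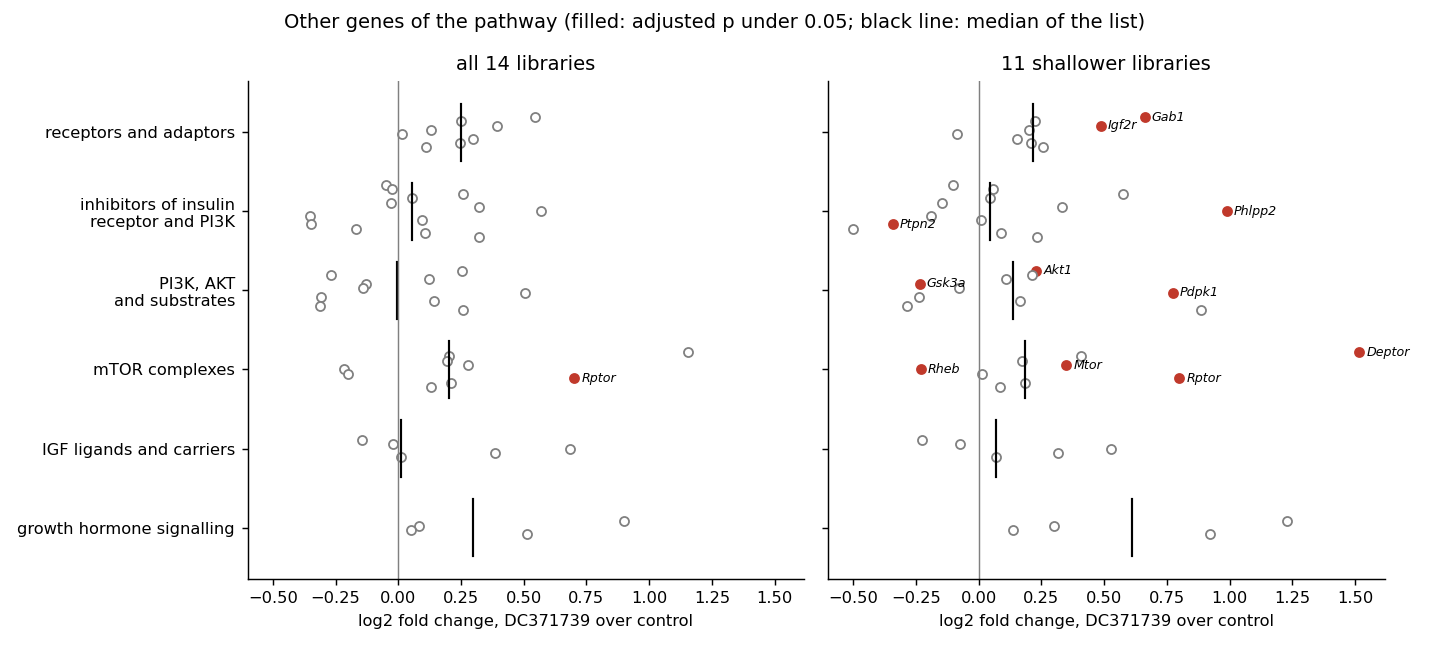
Log2 fold change of DC371739 over control (horizontal axes) for the 49 other genes of the pathway, in 6 lists by role, over all 14 libraries (left) and the 11 shallower libraries (right); filled points have an adjusted p under 0.05 and the black line is the median of a list. 1 gene is filled on the left and 11 on the right, 8 of them higher with DC371739 and 3 lower.

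Receptors and adaptors had 8 tested members. Over all 14 libraries 0 of them were called, and all 8 log2 fold changes were positive (median 0.25). With the class term 7 were positive and 1 negative, and the same counts held over the shallower libraries. Gab1, an adaptor that recruits PI3 kinase, was at 0.54 (SE 0.18, adjusted p = 0.104). Igf2r, the receptor that clears IGF2, averaged 95.6 ± 20.4 CPM in DC371739 samples and 72.6 ± 8.23 CPM in controls (0.39, SE 0.13, adjusted p = 0.112). Both rose over the shallower libraries, by 0.66 (adjusted p = 0.0243) and 0.49 (adjusted p = 0.00473). Igf2r lay above the highest control in 6 DC371739 libraries and below the lowest in deeper replicate 7, at 58.1 CPM.

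The inhibitors of the insulin receptor and of PI3 kinase signalling, 13 genes, had no called member over all 14 libraries, with 7 positive and 6 negative values. Ptpn2, a tyrosine phosphatase of the insulin receptor and JAK kinases, had 21.3, 23.6 and 27.3 CPM in the lowest, median and highest DC371739 library and 26.3, 28.9 and 35.3 CPM in controls. It lay below the lowest control in 6 of 7 DC371739 libraries, with a log2 change of -0.35 (SE 0.09, adjusted p = 0.0558). It fell both with the class term (-0.33, adjusted p = 0.0174) and over the shallower libraries (-0.34, adjusted p = 0.0133).

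In the list of PI3 kinase, AKT and their substrates 0 of 10 passed over all 14 libraries, and 5 values were positive and 5 negative. Akt1, the ubiquitous AKT kinase, had 113, 133 and 142 CPM in DC371739 samples and 92.9, 113 and 124 CPM in controls. It lay above the highest control in 6 of 7 DC371739 libraries, with a log2 fold change of 0.25 (SE 0.08, adjusted p = 0.0876). Akt1 rose with the class term (0.22, adjusted p = 0.0174) and over the shallower libraries (0.23, adjusted p = 0.0149). Pdpk1, the kinase that activates AKT, was at 0.50 (SE 0.19, adjusted p = 0.157) and rose by 0.77 over the shallower libraries (adjusted p = 0.00669). Pik3ca, a catalytic subunit of PI3 kinase named after its values were seen, was at -0.31 over all 14 libraries (SE 0.13, adjusted p = 0.187) and fell by 0.23 in the model with library class (adjusted p = 0.0376).

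Of 9 mTOR complex genes, Rptor was the 1 that passed over all 14 libraries. Mtor, the kinase of both complexes, had 45.6, 52.9 and 60.0 CPM in DC371739 samples and 39.6, 45.0 and 47.3 CPM in controls, and lay above the highest control in 6 of 7 DC371739 libraries (0.28, SE 0.08, adjusted p = 0.0619). It rose by 0.27 with the class term (adjusted p = 0.0205) and by 0.35 over the shallower libraries (adjusted p = 0.00380). The other genes that passed over the shallower libraries, named after their values were seen, were Deptor, an mTOR inhibitor (1.52), and the AKT phosphatase Phlpp2 (0.99), which rose, and the mTORC1 activator Rheb (-0.23) and the glycogen synthase kinase Gsk3a (-0.24), which fell. Deptor also rose with the class term (1.13, adjusted p = 0.0445), and over all 14 libraries it was at 1.15 (adjusted p = 0.0673).

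The IGF carriers beside Igfbp1 had 5 tested members and none passed in any of the 3 edgeR fits. Igfbp5 was at 1.03 ± 0.35 CPM with DC371739 and 0.65 ± 0.39 CPM in controls (0.68, SE 0.35, adjusted p = 0.279), and Igfbp6 at 4.61 ± 1.37 CPM with DC371739 and 3.53 ± 0.99 CPM in controls (0.39, SE 0.22, adjusted p = 0.333). None of the 4 tested genes of growth hormone signalling passed in them either. Cish and Socs2, feedback inhibitors that STAT5 induces, varied widely. Cish had 9.12, 14.3 and 51.9 CPM in DC371739 samples and 7.04, 11.2 and 21.2 CPM in controls (0.90, SE 0.36, adjusted p = 0.178). Socs2 had 9.62, 15.4 and 54.95 CPM in DC371739 samples and 4.64, 13.8 and 34.5 CPM in controls (0.51, SE 0.49, adjusted p = 0.592). In both genes DC371739 replicate 2 was the highest library.

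Some markers of other liver cells were also higher in DC371739 samples. Sums of markers are given without a test. The 12 macrophage markers measured summed to 862 to 1318 CPM (median 1202) in DC371739 samples and 760 to 1127 CPM (median 833) in controls. Over all 14 libraries 3 of the 12 rose, where 1.85% of all genes passed, 8 rose in the model with library class (12.3% of all genes) and 6 rose without the deeper libraries (21.5%). The 10 stellate cell and fibroblast markers summed to 318 to 513 CPM (median 361) with DC371739 and 248 to 356 CPM (median 297) in controls; 1 rose over all 14 libraries, 2 in the model with library class and 3 without the deeper libraries. Of 8 endothelial markers none passed over all 14 libraries, while Pecam1 and Cdh5 rose in both other fits. Of 8 hepatocyte markers none passed over all 14 libraries, Hnf4a rose in both other fits and Apob rose without the deeper libraries. No cholangiocyte marker of 5 passed in any of the 3 fits, and no marker of these lists passed as lower in them. Over all 14 libraries the log2 fold change was negative for 2 of 12 macrophage and 1 of 10 stellate cell and fibroblast markers. It was also negative for 3 of 8 endothelial, 3 of 8 hepatocyte and 0 of 5 cholangiocyte markers. No marker measured was at 0 in all libraries. The part of these cells in the values of Irs2, Irs1, Foxo1, Igfbp1 and Rptor was not tested. Of 11 markers of other tissues (pancreas, muscle, kidney and fat), none had a symbol row.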

How the data were processed

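The authors deposited whole-number counts per Ensembl gene for 14 libraries, with summed exon lengths, and a table of FPKM with their own log2 fold changes and p-values, per the file headers. HISAT2 2.2.1, featureCounts 2.0.0 and edgeR are named in the submitters' processing notes; build, strand and settings are not stated in the sources used here. The deposited FPKM equal counts over length and 1 constant per library.

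Counts were tested with edgeR 4.0.16 (R 4.3.3; quasi-likelihood, robust, TMM, minimum count of 10 in its default filter) with treatment alone in the model, and Benjamini-Hochberg adjusted p-values over all 12166 genes tested under 0.05 were called. SE came from the fold change and the root of F. Alternatives used DESeq2 1.42.0 and limma 3.58.1. Ratios were tested by exact permutation (scipy 1.17.1). SE did not follow counts alone: over all 14 libraries it was 0.19 for Foxo1 and 0.25 for Igfbp1, which had more counts.

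The members and lists were chosen with earlier results of these data known. All members were named, and of each list the called genes and the 2 of smallest p, with the exceptions stated; 1 gene that this rule takes is not reported here. No pair of libraries within a group agreed within sampling noise (42 pairs, with a chi-square of at least 9.04 per degree of freedom). On simulated counts (12166 genes) 40 of 79 genes changed 1.5-fold, 47 of 58 changed 2-fold and 59 of 63 changed 3-fold were recovered, with 7 false calls. The simulated counts held no difference between library classes and pooled genes of all levels. They therefore do not give the share that would be recovered among the members in these data.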

Additional observations from a re-analysis of the deposited data

How the results depend on the processing

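The 0 members called over all 14 libraries became 1 with DESeq2 (Irs2, adjusted p = 0.0256) or the class term and 3 with limma-voom (Irs2, Igfbp1 and Irs1) or over the shallower libraries, and ranged from 0 to 1 without any 1 library. Of all genes tested, 1.85% passed over all 14 libraries and 6.33% with DESeq2. The share was 12.3% with the class term, 22.5% with limma-voom and 21.5% over the shallower libraries. Scaling, expression filter, FPKM-based limma and the replicate block left it at 0. Over the shallower libraries the 3 ranged from 1 to 3 without 1 more library, in fits added after the data were seen. Ghr alone changed sign, to 0.040 with limma-voom, 0.0013 with the class term and 0.077 without the deeper libraries. Called genes over the whole table numbered 225 (151 higher, 74 lower), 850 with DESeq2, 2739 with limma-voom, 8 with the replicate block, 1499 with the class term and 2635 without the deeper libraries, and 25 to 1069 without any 1 library. Upper-quartile scaling moved the split to 223 higher and 65 lower. The 1 pathway gene called became 2 with upper-quartile scaling, 0 with library size alone, either FPKM fit or the replicate block, 5 with DESeq2, 11 with limma-voom, 6 with the class term and 11 without the deeper libraries, and 0 to 9 without any 1 library. These counts are out of 49 genes, to be read against the shares of all genes given above. The cause of these moves was not tested. Whether replicate numbers pair the samples is not stated. After group means were removed, same-numbered libraries correlated at -0.131 to 0.548, and 1 of 14 libraries correlated best with its own number. Library class was left in these correlations, and the highest was that of replicate 7, deeper in both groups, so they cannot settle the question. The block gave Irs2 an adjusted p of 0.0705.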
